A study of Drosophila melanogaster with 16 samples.

Results

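The transcripts of 10 genes that encode mRNA deadenylation and decapping factors were followed over an EC-tagging pulse-chase in Drosophila larval brains. The genes are twin, Pop2, Not1, Not3, Rga, Dcp1, Dcp2, me31B, pcm and pum, and they were chosen by name, as every transcript listed for them in the neuroblast and neuron tables. They hold 40 transcripts of the 31049 in the neuroblast table and the same 40 of the 30944 in the neuron table, and 10 of 14228 genes. All 10 genes passed the filter on low counts in every test on counts summed per gene.

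Most mRNAs are turned over by shortening of the poly(A) tail, removal of the 5′ cap and digestion of the body from the 5′ end. The CCR4-NOT complex shortens the tail: twin (the fly CCR4) and Pop2 (CAF1) are its nucleases, Not1 is the scaffold they sit on, and Not3 and Rga (the fly NOT2) form the module at the other end of Not1. Dcp2 removes the cap with its cofactor Dcp1, the DEAD-box helicase me31B links deadenylation to decapping and translational repression, pcm (the fly XRN1) digests decapped mRNA, and pum (Pumilio) binds elements in target mRNAs and brings CCR4-NOT to them. In the nervous system pum is known for its control of neuronal excitability and dendrite growth.

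In EC-tagging, the fusion enzyme CD:UPRT lets the cells that express it build 5-ethynylcytosine (5EC) into new RNA, and the tagged RNA is then purified. UAS-CD:UPRT was driven by insc-Gal4 in neuroblasts and other neural progenitors, and by nSyb-Gal4 in neurons, so both groups carried UAS-CD:UPRT and differed in the Gal4 line. The larvae, kept at 25 °C, received 5EC at 1 mM between 72 and 84 h after hatching (the 12 h pulse), and were then moved to 10 mM uridine for a chase of 3, 6 or 12 h. Each cell type had 2 libraries at the pulse and 2 at each chase time, 16 in all, made from RNA of crudely dissected central nervous systems. Feeding was done in biological triplicate and biotinylation in duplicate according to the methods, while the labels number the libraries 1 and 2, so the spread between replicates may be partly technical. RNA purified from larvae without CD:UPRT was not analysed here.

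Total estimated counts ran between 11053940 and 31713720 per neuroblast library and between 44317916 and 211109573 per neuron library, and 3 counts, the limit that a count of 0 allows, equal 0.0946 to 0.271 CPM (counts scaled to a library total of 1e6) in neuroblasts and 0.0142 to 0.0677 CPM in neurons. At least 10 counts were reached by 2244 transcripts in replicate 1 of neuroblasts at 12 h, against 8047 to 15615 in the other neuroblast libraries, and by 1046 to 22337 transcripts in neuron libraries. In replicate 1 of neurons, mitochondrially encoded transcripts made up 86.3% to 92.1% of each library, beside 2.75% to 11.9% in replicate 2 of neurons and 9.66% to 12.8% in neuroblasts. The cell type labels were checked against markers. All 6 neuron markers reached 10 counts in at least 7 of 8 libraries of each cell type, with a summed level of 197 to 1500 CPM in neuroblast libraries and 400 to 4960 CPM in neuron libraries. The 6 neuroblast markers summed to 0.814 to 165 CPM in neuroblast libraries and 0.203 to 332 CPM in neuron libraries. Of 8 neuroblast libraries, 10 counts were reached by dpn in 1, wor and mira in 2, ase and insc in 5 and grh in 7. Of 8 neuron libraries, 10 counts were reached by dpn in 2, wor, mira and ase in 4, insc in 5 and grh in 7. Both dpn and mira were at 0 in 6 of 8 neuroblast libraries. The 4 fat body markers summed to 7280 to 45100 CPM in neuroblast libraries and 3.17 to 4340 CPM in neuron libraries, although Fbp1 was at 0 in all 8 neuroblast libraries. The 4 muscle markers summed to 12100 to 80600 CPM in neuroblast libraries and 145 to 16800 CPM in neuron libraries. The markers thus did not separate the libraries as labelled, and "neuroblasts" and "neurons" are used here for the libraries of each Gal4 line. What share of the values below came from other tissues was not tested.

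The 10 genes were all detected with at least 10 counts in both neuroblast pulse libraries, where 7053 and 8911 of all 14228 genes were. The summed share of the 10 genes was lower at 6 and 12 h than at the pulse in both neuroblast replicates. Replicate 1 of neuroblasts had 2100, 2320, 1020 and 139 CPM at the pulse and after 3, 6 and 12 h, and replicate 2 had 1910, 1820, 919 and 527 CPM. Both libraries at 6 h and both at 12 h lay below both pulse libraries. In neurons, replicate 1 had 33, 314, 484 and 255 CPM and replicate 2 had 450, 2300, 1260 and 1290 CPM, so both pulse libraries had the lowest share of their replicate. A few genes made up most of some sums. In neuroblast pulse replicate 1, Not1, pum and Dcp2 had 888.9, 400.7 and 322.5 of the 2100 CPM. In neuron pulse replicate 2, twin and Not1 had 298.3 and 136.1 of the 450 CPM. In the neuron pulse libraries 3 of 10 reached 10 counts in replicate 1 and 6 of 10 in replicate 2, where 918 and 2280 of all 14228 genes did. In a bulk library, fewer cells of a type and less RNA per cell cannot be told apart. In the same neuroblast libraries the summed neuron markers were 1500 and 1100 CPM at the pulse and 197 and 379 CPM at 12 h. Neuroblast and glia markers were also lower at 12 h in both replicates. Fat body markers went from 8620 to 39500 CPM in replicate 1 and from 8700 to 7280 CPM in replicate 2. Muscle markers went from 33800 to 12100 CPM in replicate 1 and from 33700 to 80600 CPM in replicate 2.

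**Figure D1:**
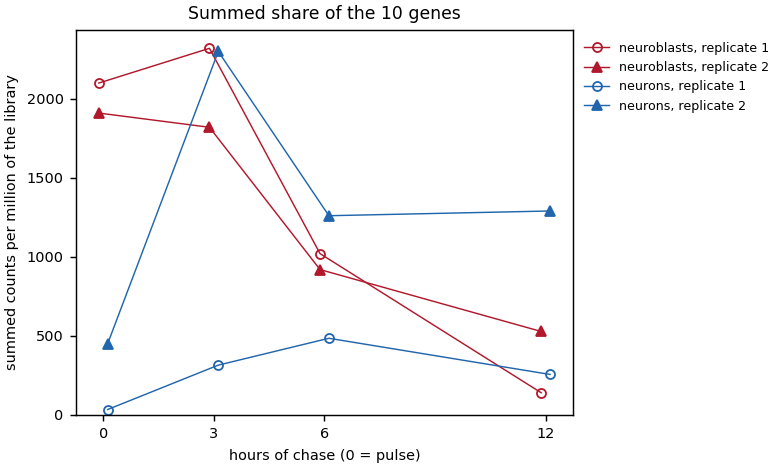
Summed CPM of the 10 genes (linear axis that starts at 0) against hours of chase, with 1 point per library and a line per replicate. Both neuroblast replicates end the chase at 139 and 527 CPM, below their pulse values of 2100 and 1910 CPM, and both neuron replicates start at their lowest value.

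Total-count CPM moves with every other RNA in the library, so single genes were compared after TMM scaling, which assumes that most genes do not differ between the libraries of 1 cell type. The TMM factors ranged between 0.369 and 1.58 in neuroblasts, lowest in both 12 h libraries, and between 0.168 and 6.32 in neurons, lowest in both pulse libraries. After this scaling the median over all genes tested of 12 h against the pulse was still -1.09 log2 in neuroblasts and 7.7 log2 in neurons. Levels scaled in this way are not comparable between the cell types, and within 1 cell type they carry this shift. In neuroblasts, 5 of the 10 genes (twin, Not1, Not3, Dcp2 and me31B) had both 12 h libraries below both pulse libraries, against 28.8% of the 9962 genes tested, and 0 had both above, against 7.09%. With CPM of the total count it was 9 of 10 below (all but Pop2), against 46% of genes, and 0 above, against 2.09%. In neurons 0 of the 10 had both 12 h libraries below both pulse libraries, against 1.11% of the 11724 genes tested, and 4 (Dcp2, me31B, pcm and pum) had both above, against 36.6%. With CPM of the total count Not3 and Rga joined these, giving 6 of 10 above against 41.4%, and 0 below against 0.188%. In neurons the count thus stood near that of all genes.

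**Figure D2:**
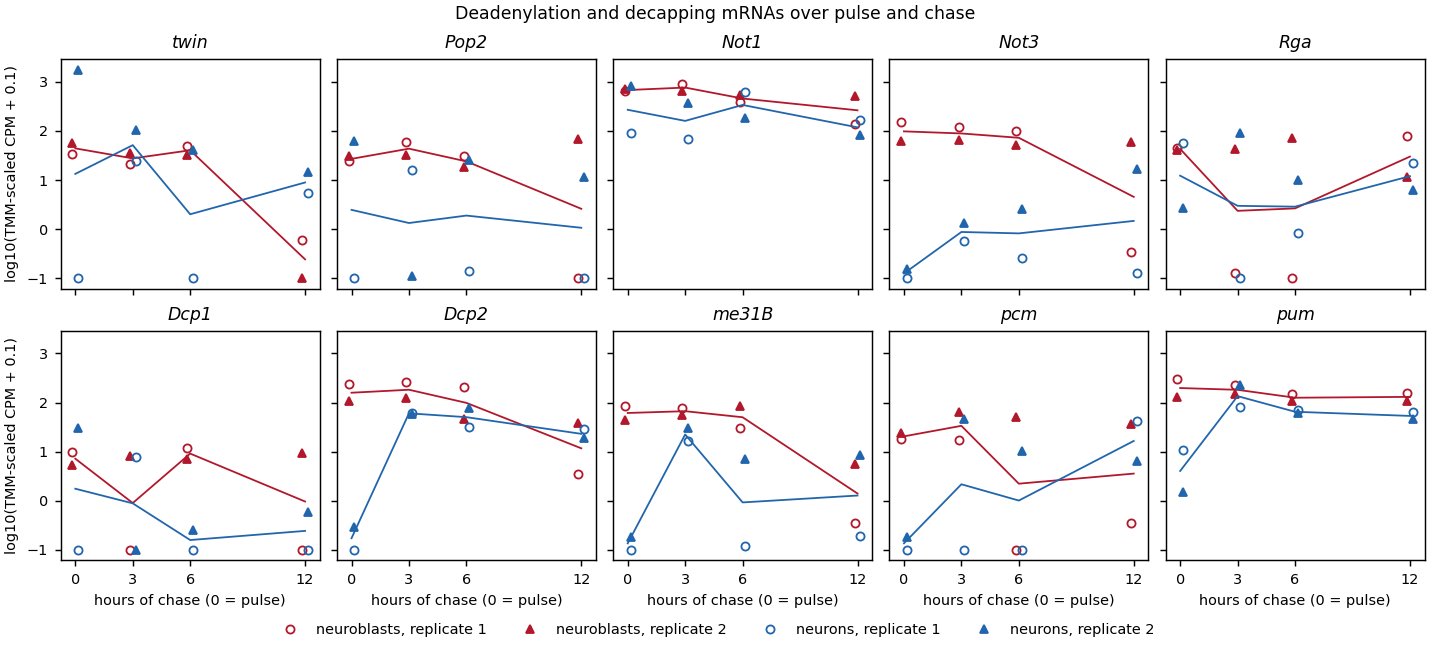
TMM-scaled level of each gene, as log10(CPM + 0.1), against hours of chase, with 1 point per library and lines through the mean of the 2 replicates on this scale. Points at -1 are libraries with a count of 0, and levels are scaled within a cell type. Neuroblast points of twin, Not1, Not3, Dcp2 and me31B at 12 h lie below both pulse points, and replicates of 1 time are often far apart.

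Of the nucleases of CCR4-NOT, twin (3R, 24196893 to 24221965, minus strand, BDGP6.54) was nearly absent from both neuroblast libraries at the end of the chase. These libraries hold RNA purified for the tag, so its level in the cells was not measured. Its neuroblast level was 33.7 and 57.5 CPM in replicates 1 and 2 at the pulse, 21.3 and 35.4 CPM after 3 h, 50.2 and 32.3 CPM after 6 h, and 0.49 and 0 CPM after 12 h, the last from 2 counts and 0 counts. The first 6 neuroblast libraries overlapped, and the 12 h pair lay apart from all of them. In neurons twin was at 0 and 1780 CPM at the pulse, 24.7 and 106 CPM after 3 h, 0 and 40.3 CPM after 6 h, and 5.24 and 14.8 CPM after 12 h. Replicate 2 of the neuron pulse, with 62855 counts of twin, stood above every other neuron library, while replicate 1 had 0. The gap depends on the scaling. By CPM of the total count replicate 2 was at 298.3 CPM at the pulse and 261.3 CPM after 3 h. The slope was -0.52 ± 0.30 log2 per hour in neuroblasts (SE, adjusted p = 0.638) and -0.52 ± 0.34 in neurons (adjusted p = 0.62), both from a quasi-likelihood fit in edgeR over the 8 libraries of the cell type. The neuron slope was -0.20 without replicate 2 of the pulse and -0.07 with replicate 1 alone.

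Pop2 (3L, 11998398 to 12002915, minus strand) did not share this pattern. Its neuroblast level was 24.0 and 30.1 CPM at the pulse, 59.7 and 31.6 CPM after 3 h, 31.2 and 18.3 CPM after 6 h, and 0 and 67.4 CPM after 12 h. The 12 h replicates were its lowest and its highest neuroblast libraries. In neurons it was at 0 and 61.0 CPM at the pulse, 15.9 and 0.0114 CPM after 3 h, 0.041 and 25.2 CPM after 6 h, and 0 and 11.3 CPM after 12 h. At each time 1 neuron library had at most 5 counts and the other at least 1802. The slope was 0.00077 ± 0.16 log2 per hour in neuroblasts (edgeR adjusted p = 1) and -0.18 ± 0.33 in neurons (adjusted p = 0.937).

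Not1, the scaffold (2R, 9566146 to 9579007, minus strand), was counted in all 16 libraries, as was pum. In neuroblasts it was at 654 and 707 CPM at the pulse, 908 and 642 CPM after 3 h, 396 and 526 CPM after 6 h, and 136 and 509 CPM after 12 h. All 4 libraries of 6 and 12 h lay below the other 4. The neuron libraries had it at 89.2 and 812 CPM at the pulse, 68.7 and 373 CPM after 3 h, 610 and 187 CPM after 6 h, and 171 and 81.7 CPM after 12 h, with the 12 h libraries overlapping the pulse libraries. The neuroblast slope of -0.10 ± 0.08 log2 per hour (edgeR adjusted p = 0.752) was at the median of all genes, also -0.1, and the neuron slope was -0.13 ± 0.36 (adjusted p = 0.971). The neuroblast value turned to 0.0069 with DESeq2 size factors in place of TMM.

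Not3 (2R, 5656406 to 5663222, minus strand) had at least 744 counts in 7 of 8 neuroblast libraries and under 100 counts in 5 of 8 neuron libraries. In neuroblasts it had 3870 and 1241 counts at the pulse, 4334 and 3040 counts at 3 h, 1565 and 992 counts at 6 h, and 1 and 744 counts at 12 h. In neurons, whose libraries were deeper, it had 0 and 2 counts at the pulse, 55 and 531 counts at 3 h, 8 and 1273 counts at 6 h, and 2 and 10689 counts at 12 h. On the TMM scale the neuroblast libraries up to 6 h lay between 51.5 and 152 CPM, and the last pair at 0.245 and 59.7 CPM. The neuron libraries lay at or below 2.45 CPM apart from replicate 2 at 12 h, at 17.0 CPM. By CPM of the total count that neuron library, at 104.6 CPM, lay within the neuroblast libraries, at 0.0905 to 207 CPM. The slope was -0.16 ± 0.13 log2 per hour in neuroblasts (edgeR adjusted p = 0.824) and 0.53 ± 0.42 in neurons (adjusted p = 0.726). The neuron slope was 0.26 without replicate 2 of 12 h and turned to -0.24 with replicate 1 alone.

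Rga (3R, 5607275 to 5613112, minus strand), the other member of that module, was dominated by differences between replicates. Its neuroblast level was 44.3 and 41.5 CPM at the pulse, 0.0283 and 43.3 CPM after 3 h, 0 and 70.0 CPM after 6 h, and 78.2 and 11.4 CPM after 12 h. Its neuron level was 55.6 and 2.6 CPM at the pulse, 0 and 89.0 CPM after 3 h, 0.717 and 9.99 CPM after 6 h, and 22.4 and 6.28 CPM after 12 h. In both cell types the 12 h libraries overlapped the pulse libraries. The slope was 0.02 ± 0.15 log2 per hour in neuroblasts (edgeR adjusted p = 0.998) and -0.13 ± 0.32 in neurons (adjusted p = 0.965).

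Of the decapping enzyme, the catalytic subunit Dcp2 (3L, 15818734 to 15826423, minus strand) was lower in both neuroblast replicates at 12 h than at any earlier time of the same replicate. It was at 237 and 106 CPM at the pulse, 262 and 126 CPM after 3 h, 206 and 47.0 CPM after 6 h, and 3.43 and 38.6 CPM after 12 h. Replicate 1 lay above replicate 2 up to 6 h and far below it at 12 h. In neurons it was at 0 and 0.198 CPM at the pulse, 60.8 and 59.5 CPM after 3 h, 32.0 and 79.1 CPM after 6 h, and 28.2 and 18.7 CPM after 12 h. The 6 neuron chase libraries thus held 1559 to 41093 counts of Dcp2, against 0 and 7 in the pulse libraries. Its neuroblast slope was -0.27 ± 0.13 log2 per hour, the only one among the 10 genes in neuroblasts under the threshold before adjustment (edgeR adjusted p = 0.61), and its neuron slope was 0.07 ± 0.47 (adjusted p = 0.996).

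The cofactor Dcp1 (2R, 23888764 to 23890276, minus strand), annotated like Dcp2 in capitals as DCP1, was low. Its neuroblast level was 9.72 and 5.17 CPM at the pulse, 0 and 7.99 CPM after 3 h, 11.6 and 7.05 CPM after 6 h, and 0 and 9.23 CPM after 12 h. The neuron libraries had it at 0 and 30.9 CPM at the pulse, 7.77 and 0 CPM after 3 h, 0 and 0.152 CPM after 6 h, and 0 and 0.494 CPM after 12 h. Apart from its zeros, it stayed between 5.17 and 11.6 CPM in neuroblasts. The slope was -0.03 ± 0.32 log2 per hour in neuroblasts (edgeR adjusted p = 0.999) and -0.50 ± 0.38 in neurons (adjusted p = 0.708), where it was -1.27 without replicate 2 of 12 h and -0.34 without replicate 2 of the pulse.

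The helicase me31B (2L, 10239341 to 10242172, plus strand) was lower at 12 h than at any other time in neuroblasts. It was at 83.6 and 44.8 CPM at the pulse, 78.6 and 56.4 CPM after 3 h, 30.1 and 83.3 CPM after 6 h, and 0.245 and 5.62 CPM after 12 h, the last from 1 count and 70 counts. Its neuron level was 0 and 0.0849 CPM at the pulse, 16.1 and 30.7 CPM after 3 h, 0.0205 and 7.01 CPM after 6 h, and 0.0941 and 8.33 CPM after 12 h. Replicate 1 of neurons had 0, 1 and 7 counts at the pulse, 6 h and 12 h, so its place above the pulse at 12 h rests on those few counts. The slope was -0.38 ± 0.20 log2 per hour in neuroblasts (edgeR adjusted p = 0.612) and -0.09 ± 0.45 in neurons (adjusted p = 0.991), and with 12 h set against the pulse in place of a slope the neuron value was positive, at 6.46 (adjusted p = 0.405).

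The exonuclease pcm (X, 19485759 to 19492011, minus strand) was at 17.6 and 23.6 CPM in neuroblasts at the pulse, 17.4 and 64.3 CPM after 3 h, 0 and 49.6 CPM after 6 h, and 0.245 and 36.9 CPM after 12 h. The replicates parted from 6 h on, with replicate 1 at 0 counts and 1 count. In neurons it was at 0 and 0.0849 CPM at the pulse, 0 and 46.9 CPM after 3 h, 0 and 10.1 CPM after 6 h, and 42.4 and 6.31 CPM after 12 h. Replicate 1 of neurons was at 0 until 12 h, when it had 3155 counts. The slope was -0.05 ± 0.20 log2 per hour in neuroblasts (edgeR adjusted p = 0.99) and 0.19 ± 0.38 in neurons (adjusted p = 0.944).

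The recruiter pum (3R, 9066343 to 9237682, minus strand) stayed within 105 to 295 CPM in neuroblasts. Replicates 1 and 2 were at 295 and 132 CPM at the pulse, 223 and 148 CPM after 3 h, 149 and 105 CPM after 6 h, and 157 and 108 CPM after 12 h. The 12 h libraries overlapped the pulse libraries. The neuron libraries had it at 10.5 and 1.44 CPM at the pulse, 79.7 and 229 CPM after 3 h, 68.8 and 61.0 CPM after 6 h, and 63.0 and 45.1 CPM after 12 h, with all 6 chase libraries above both pulse libraries. The slope was -0.06 ± 0.09 log2 per hour in neuroblasts (edgeR adjusted p = 0.949) and 0.02 ± 0.40 in neurons (adjusted p = 0.999). Both signs turned with DESeq2 size factors, to 0.14 in neuroblasts and -0.0032 in neurons.

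None of the 10 slopes passed an adjusted p of 0.05 in either cell type. In neuroblasts 0 of 10 did, against 0.602% of all genes (60 of 9962, all rising), and 1 of 10 had an unadjusted p under 0.05, against 8.06% of all genes. The 60 became 0 when replicate 1 of 12 h was left out. In neurons 0 of 10 passed, against 0% of all genes (0 of 11724), and 0 of 10 had an unadjusted p under 0.05, against 10.3%, where edgeR counted 193 falling and 1019 rising genes. The 0 of all genes became 2678 when replicate 1 of 12 h was left out, and 3127 with replicate 2 alone. DESeq2 also called 0 of the 10 in each cell type, against 9.87% of all genes in neuroblasts (983) and 6.23% in neurons (730), and had 3 and 2 of them at an unadjusted p under 0.05, against 20.2% and 20.1%. DESeq2 gave no adjusted p for twin, Pop2, Dcp1, me31B and pcm in neuroblasts or for Not3 in neurons, so these could not be called. The slope was negative for 8 of 10 genes in neuroblasts, against 69.3% of all genes, with a median of -0.08 log2 per hour beside -0.1 over all genes. In neurons it was negative for 6 of 10, against 33.7% of all genes, with a median of -0.11 beside 0.21 over all genes. The spread was wide, with a biological coefficient of variation of 1.78 in neuroblasts and 2.98 in neurons.

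**Figure D3:**
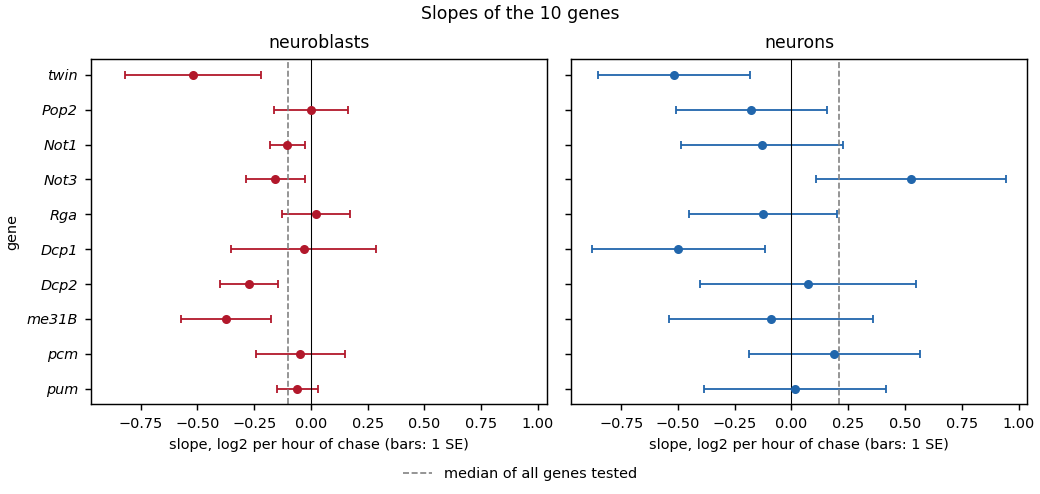
Slope of each gene on hours of chase (log2 per hour, points) with 1 SE (bars), in neuroblasts on the left and neurons on the right. The dashed line is the median over all genes tested, at -0.1 in neuroblasts and 0.21 in neurons, and bars are wider in neurons for every gene.

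The difference of slopes, neuroblasts minus neurons, was tested over all 16 libraries. It passed for 0 of 10 genes, against 0.567% of all genes (72 of 12694), and 0 of 10 had an unadjusted p under 0.05, against 14.3%. DESeq2 called 0 of the 10 as well, against 17.7%, with 1 at an unadjusted p under 0.05, against 27.7%. Not3 had the largest difference, -0.74 ± 0.44 log2 per hour (edgeR adjusted p = 0.458), and the other 9 genes lay between -0.37 (Dcp2) and 0.37 (Dcp1). The difference was negative for 7 of 10, against 75.1% of all genes, with a median of -0.05 beside -0.47 over all genes.

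The level in neuroblasts over neurons, with time as 4 levels, was called for 0 of 10 genes by edgeR, against 0.961% of all genes (122 of 12694), and 1 of 10 had an unadjusted p under 0.05, against 16.5%. That gene was twin, at -4.22 ± 2.05 log2 (edgeR adjusted p = 0.283), and its value was 2.86 with replicate 1 alone. Not3 stood at the other end, at 4.42 ± 2.49 log2 (edgeR adjusted p = 0.367), and was called by DESeq2 at 4.95 (adjusted p = 0.000417), the only one of the 10 so called, against 29% of all genes by DESeq2. By DESeq2 2 of the 10 had an unadjusted p under 0.05, against 38.3%. Leaving out single libraries or a replicate moved Not3 between 2.86 and 6.22, with the lowest value from replicate 2 alone. The other 8 genes lay between -0.93 (Not1) and 0.96 (me31B), and 7 of the 10 were negative, against 49.8% of all genes. With libraries left out me31B moved between 0.13 (without neuron pulse replicate 1) and 4.06 (replicate 1 alone), and Not1 between -1.91 and -0.90. In the same fit 0 of 4 fat body markers were called, with a median of 4.06 log2, and 0 of 6 neuron markers, with a median of -2.81, and 3 and 2 of them had an unadjusted p under 0.05. Of those 3 fat body markers, Lsp1gamma (5.07 log2) and Lsp2 (8.54 log2) were higher in neuroblasts, and Fbp1 (-9.08 log2) was lower. The part of the markers in the values of the 10 genes was not tested.

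Per kilobase of transcript, Not1 led the 10 genes in both cell types. Its median share of their summed counts per kilobase was 28.8% in neuroblasts and 22.9% in neurons, and it was first in 7 of 8 neuroblast libraries and 5 of 8 neuron libraries. In neuroblasts me31B followed with a median of 14.0%, then Not3 (9.48%), Dcp2 (9.40%), pum (8.68%) and Pop2 (8.49%), and the differences between those 4 medians were smaller than the range of each gene over libraries. Rga (6.13%), twin (3.98%), Dcp1 (2.31%) and pcm (1.64%) had the lowest. In neurons pum (12.5%), twin (12.1%) and Dcp2 (7.93%) came after Not1, and Not3 (0.135%) and Dcp1 (0.0588%) were last. The neuron shares ranged more widely, for twin between 0% and 80.7% and for Rga between 0% and 68.5%, where the neuroblast ranges were 0% to 7.67% and 0% to 39.0%. Hence only the place of Not1 held in most libraries of both cell types.

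**Figure D4:**
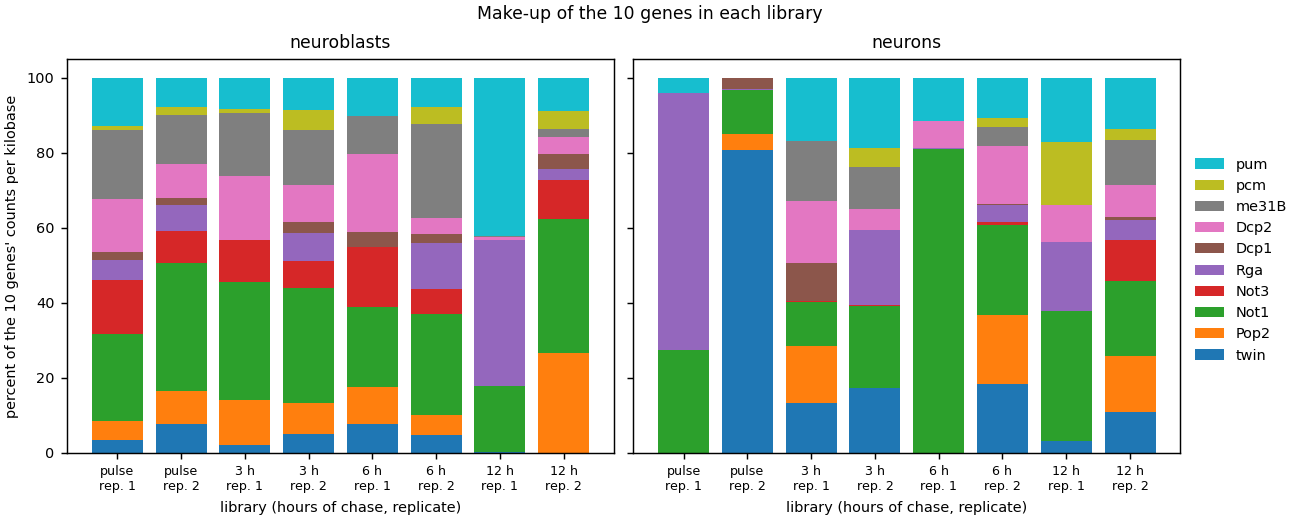
Share of each gene in the summed counts per kilobase of the 10 genes (percent, stacked to 100), by library, with neuroblasts on the left and neurons on the right. In replicate 1 of neuroblasts at 12 h pum (42.2%) and Rga (39.0%) take most of the bar, and in the neuron pulse Rga (68.5%) does in replicate 1 and twin (80.7%) in replicate 2.

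Counts per transcript were more scattered than counts per gene. Where a transcript of the 10 genes had at least 100 counts in a replicate, the other replicate had under 1 count in 54.2% of cases in neuroblasts (45 of 83) and 66.2% in neurons (51 of 77), and for counts summed per gene the shares were 13.2% (5 of 38) in neuroblasts and 29.4% (10 of 34) in neurons. Of the 40 transcripts 1, the Dcp2 transcript FBtr0075538, had no count in any library. The longest transcript held the most counts for 7 of 10 genes in neuroblasts and 2 of 10 in neurons, and the leading transcript was the same in both cell types for 5 of 10.

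Dcp2 had the most even usage: FBtr0304975, of 5934 bases, held 93.5% of its counts in neuroblasts and 98.2% in neurons, and between 86.4% and 100% in each library with at least 100 counts of the gene. For Not1, FBtr0304957 (10068 bases) held 81.4% in neuroblasts and 70.0% in neurons. It led in 8 of 8 neuroblast libraries and 6 of 8 neuron libraries. For pcm, FBtr0074784 held 92.5% and 87.9%, for me31B FBtr0079976 held 59.9% and 85.0%, and for Pop2 FBtr0076058 held 85.9% and 37.9%, each in neuroblasts and then neurons.

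In the other 5 genes the transcript with the highest summed count differed between the cell types, but it did not always lead in most libraries. For twin it was FBtr0084568 (3548 bases) in neuroblasts, with 90.2% of the counts, and FBtr0084567 (2621 bases) in neurons, with 44.2%, although FBtr0084567 led in only 1 neuron library, the pulse replicate with 62855 counts of the gene. For Rga it was FBtr0078741 (2902 bases, 58.9%) in neuroblasts and FBtr0345140 (2514 bases, 69.9%) in neurons, where it led in 6 of 7 libraries with the gene. FBtr0345140 also led in 3 of 6 neuroblast libraries with Rga, and FBtr0078741 led in 2. For Not3 it was FBtr0331970 (63.8%) in neuroblasts and FBtr0086062 (53.0%) in neurons, which share 1 annotated coding sequence, as do the leading Dcp1 transcripts FBtr0072223 (59.6%) in neuroblasts and FBtr0301648 (83.5%) in neurons. In neurons each of these Dcp1 transcripts led in 2 of 4 libraries with the gene. The 8 pum transcripts shared its counts, with FBtr0333667 (10223 bases) at 37.6% in neuroblasts and FBtr0081991 (6659 bases) at 32.6% in neurons. FBtr0081991 led in only 1 of 8 neuron libraries, while FBtr0333668 led in 4.

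**Figure D5:**
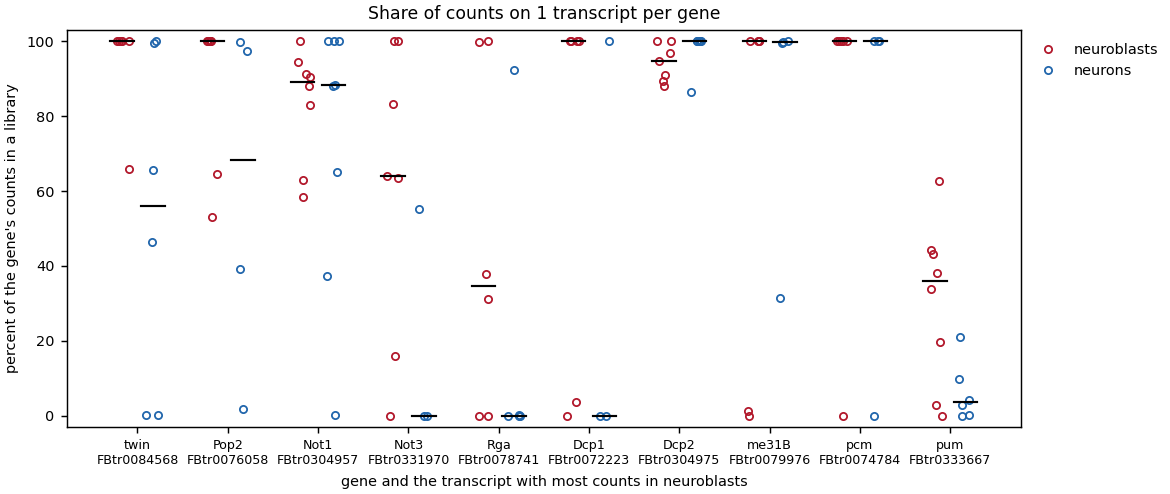
Percent of a gene's counts that fall on its leading neuroblast transcript, in each library with at least 100 counts of the gene, with neuroblasts left of neurons and black bars at the median. For Dcp2 every library lies at 86.4% or above, while Not3, Rga, Dcp1 and pcm, among others, have libraries at 0% and near or at 100%.

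Tested per transcript, 26 of the 40 passed the filter in neuroblasts, 27 in neurons and 33 over both cell types. By edgeR 0 of 26 slopes were called in neuroblasts, against 0.0616% of all transcripts, 0 of 27 in neurons, against 0.0331%, and 0 of 33 differences between cell types, against 0.178%. Under an unadjusted p of 0.05 there were 1, 3 and 2, against 6.83%, 11.7% and 17.3% of all transcripts, and DESeq2 called 2, 4 and 9, against 8.49%, 11.7% and 33.5% of all transcripts. At an unadjusted p under 0.05 DESeq2 had 4, 5 and 12, against 19.7%, 23.4% and 41.9%. The value was negative for 19 of 26, 11 of 27 and 22 of 33, against 69.2%, 33.8% and 51.2% of all transcripts. In neuroblasts the one was a pum transcript, FBtr0305197, at 1.25 ± 0.50 log2 per hour (edgeR adjusted p = 0.653). It reached 10 counts in only 2 neuroblast libraries, replicate 2 of 6 h (327.3 counts) and replicate 1 of 12 h (633.3 counts). Replicate 2 of 12 h had 0. In the comparison of cell types they were FBtr0084567 of twin, at -7.74 ± 2.29 log2 (adjusted p = 0.101), and FBtr0331970 of Not3, at 11.21 ± 4.52 log2 (adjusted p = 0.199). FBtr0084567 reached 10 counts in 0 neuroblast and 2 neuron libraries, with 62840.4 counts in replicate 2 of the pulse. FBtr0331970 reached 10 counts in 6 neuroblast libraries and 1 neuron library, replicate 2 of 12 h (5897.4 counts).

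Half-lives were fitted as a one-phase decay from the pulse mean and limited to 480 min. In neuroblasts 8 of 10 genes gave one, of which 7 were at the limit and twin was at 396 min. This rests on the scaling and the fit: with CPM of the total count all 10 gave one, 3 were at the limit, the other 7 lay between 289 min (twin) and 422 min (Not1), and a straight line on log2 values gave 9, with 121 min for twin, 142 min for me31B, 181 min for Not3 and 183 min for Dcp2. In neurons 5 of 10 did, with Not1 and Rga at the limit, Pop2 at 175 min, Dcp1 at 84.9 min and twin at 48.5 min. With CPM of the total count only twin (430 min) and Dcp1 (the limit of 480 min) gave one in neurons, and a straight line gave 313 min for twin, 282 min for Dcp1 and the limit for Pop2. For twin, Pop2 and Dcp1 in neurons the pulse mean came from 1 library, since the other was at 0. Replicate 2 alone gave 18.3 min for Pop2, 5.23 min for Dcp1 and 44.9 min for twin, and replicate 1 alone gave none for any of the 3. Not1 left the limit with replicate 2 alone (170 min), as did Rga with replicate 1 alone (6.15 min). For twin in neuroblasts replicate 2 alone gave 278 min and replicate 1 alone the limit of 480 min. The 5 genes without a neuron half-life (Not3, Dcp2, me31B, pcm and pum) did not fall below their pulse mean in the fit, and their pulse libraries held at most 99 counts. In neuroblasts Not1, Dcp2 and pum were at the limit with either replicate alone, and in neurons no gene gave a half-life from each replicate on its own.

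The other genes of the pathway came from lists of 42, of which 39 were in the tables. In neuroblasts 38 were tested and 1 was called, against 0.602% of all genes, and 5 had an unadjusted p under 0.05, against 8.06%. The gene called was pAbp, the cytoplasmic poly(A)-binding protein, which rose by 0.24 ± 0.05 log2 per hour (edgeR adjusted p = 0.00249). It had 4720 and 2430 CPM of the total count at the pulse, 5070 and 2530 CPM after 3 h, 6820 and 4260 CPM after 6 h, and 8000 and 7280 CPM after 12 h, so both replicates ended highest. The call was lost without replicate 1 of 12 h (0.20, adjusted p = 0.357), with replicate 2 alone (0.25, adjusted p = 0.0529) and with 12 h set against the pulse (2.74 log2, adjusted p = 0.162). In the same fit 2 of 3 fat body markers and 2 of 4 muscle markers were also called as rising, and their part in the rise of pAbp was not tested. The remaining lists had 0 called of 8 other deadenylase subunits, 6 decapping activators, 8 factors that recruit deadenylases or act with pum, 9 exosome and Ski genes and 5 genes of nonsense-mediated decay. In neurons 0 of 36 were called, against 0% of all genes, with 0 at an unadjusted p under 0.05, against 10.3%. For the difference of slopes 0 of 39 were called, against 0.567%, with 6 at an unadjusted p under 0.05, against 14.3%. The comparison of cell types called 0 of 39, against 0.961%, with 0 at an unadjusted p under 0.05, against 16.5%.

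Exons of 5 of the 10 genes overlap an annotated gene on the opposite strand: twin with cav, Not1 with lncRNA:CR46257, Not3 with CG1344, Rga with asRNA:ASTR and Dcp1 with CG5597. The counting is not stated to use strand, so reads of these pairs may not be told apart where they overlap.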

How the data were processed

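Reads were trimmed by the authors (Trimmomatic) and quantified against BDGP6 transcripts (kallisto), which gave the deposited tables of 1 estimated count per transcript and library, without normalization. Tool versions are not given in the sources used here. Transcripts were assigned to genes with the Ensembl release 115 annotation (BDGP6.54), which matched 30819 of 31049 rows. Rows without a gene held at most 0.332% of the counts of a library and were left out of sums per gene. Estimated counts were summed per gene, rounded, filtered with filterByExpr by group, scaled by TMM and tested with edgeR 4.0.16 (quasi-likelihood, Benjamini-Hochberg over all genes or transcripts tested, threshold 0.05) in R 4.3.3. Fits over both cell types used rows of both tables. Slopes are on hours of chase, with the pulse at 0. Each SE was calculated as the absolute log2 value over the square root of the F statistic of the edgeR test. Alternatives were DESeq2 1.42.0, its size factors, no filter, a replicate block, no mitochondrially encoded transcripts, 12 h against the pulse, and libraries left out. Half-lives were fitted with scipy 1.17.1. The scripts were tested on simulated data. The floor of 3 counts covers counting error only.

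The text names all 10 genes, the leading transcript of each in each cell type, and at most 3 other pathway genes per direction and fit among those with an adjusted p under 0.05. The pum transcript FBtr0305197 and single markers were named after their values were seen. The members and lists were chosen with earlier results of these data known.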

Additional observations from a re-analysis of the deposited data

Results flagged for a closer look

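For Dcp2 and me31B the place of 12 h relative to the pulse on the TMM scale was opposite in the 2 cell types: both 12 h libraries lay below both pulse libraries in neuroblasts, and above both pulse libraries in neurons. Over all genes tested, 28.8% had both 12 h libraries below in neuroblasts, and 36.6% had both above in neurons. The share of all genes with both patterns was not counted, so the pattern is not shown to be particular to these genes. For me31B in neurons this rests on 0.0941 CPM at 12 h against 0.0849 CPM at the pulse (7 and 3 counts), and its fitted slope was negative in both cell types, at -0.38 in neuroblasts and -0.09 in neurons. The difference of slopes, neuroblasts minus neurons, was -0.37 ± 0.45 log2 per hour for Dcp2 (edgeR adjusted p = 0.783) and -0.33 ± 0.49 for me31B (adjusted p = 0.866), so neither passed the test of the difference itself. The neuron pulse libraries held 0 and 7 counts of Dcp2, and 0 and 3 counts of me31B. Without replicate 2 of neurons at 12 h the difference for me31B was 0.16. No group was large enough to look for single outlying libraries.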

How the results depend on the processing

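Of 192 combinations of a single value and 1 of 7 alternatives, 178 kept direction and side of the threshold and 12 changed sign. Where DESeq2 gave no adjusted p, the sign alone decided. Fits with libraries left out were not among the 192. In those, the neuroblast slope changed sign in 6 of 10 refits for Pop2, 3 of 10 for Dcp1 and 0 of 10 for twin. Differences were followed under alternatives only for Not3, Dcp2 and me31B between slopes, and for twin, Not3, Not1 and me31B between cell types. No slope of the 10 genes and none of these differences was called in any edgeR alternative. The genes called as changing with chase in neuroblasts went to 743 with DESeq2 size factors (2 falling, 741 rising), 93 without the filter, 983 by DESeq2 (38 and 945), 15 for 12 h against the pulse and 35 with chase libraries only, an alternative chosen after seeing the data, and ranged between 0 (without replicate 1 of 12 h) and 182 (without replicate 2) with libraries left out. In neurons they went to 730 by DESeq2 and between 0 and 3127 (without replicate 1), with 2678 when only replicate 1 of 12 h was left out. For the difference of slopes they went to 10 with DESeq2 size factors (3 lower, 7 higher), 10 without the filter (5 and 5), 2249 by DESeq2 (1860 and 389), 0 for 12 h and 0 for chase libraries only, and between 0 and 113 (without neuron 12 h replicate 1). For neuroblasts over neurons they went to 342 with DESeq2 size factors (250 lower, 92 higher, beside 112 and 10), 253 without the filter, 3687 by DESeq2 (1621 and 2066) and 218 without mitochondrially encoded transcripts, and between 10 and 293. DESeq2 size factors moved the median of all genes in that comparison to 0.66, beside 0.01, and in the difference of slopes to -0.34, beside -0.47.

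Per transcript, the counts in neuroblasts (10) went to 37 with DESeq2 size factors, 110 without the filter, 1378 by DESeq2 and 6 with chase libraries only, and between 0 and 62 with a replicate left out. In neurons (6) they went to 10, 0, 2127 and 0 under the same alternatives, 0 for 12 h against the pulse, and between 0 and 79. Between cell types (41) they went to 86 with DESeq2 size factors, 7727 by DESeq2 and 12 with chase libraries only, and between 0 and 22. Single libraries were not left out in the fits per transcript. The 13 half-lives became 10 to 11 with a replicate left out. The cause of these shifts was not tested.

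Replicate numbers are not stated to mark a shared batch. Deviations of same-numbered libraries correlated at 0.0954 to 0.201 in neuroblasts, 0.0466 to 0.304 in neurons and -0.0339 to 0.071 between cell types. With a replicate block the counts were 145 in neuroblasts, 0 for the difference of slopes, 509 between cell types (most of them higher, 406), and per transcript 49 in neuroblasts and 2 between cell types. The block turned the neuroblast slope of Pop2 to -0.021 and moved me31B in neuroblasts over neurons to 4.1. It added no call among the slopes of the 10 genes or the differences followed under alternatives.

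Other values that changed sign were the neuroblast slopes of Not1 (0.0069 with DESeq2 size factors, 0.0068 by DESeq2), pum (0.14 in both) and Pop2 (-0.042, chase libraries only), the neuron slopes of pum (-0.0032, -0.0033 and, chase only, -0.15), Dcp2 (-0.15, chase only) and me31B (6.46 log2, 12 h against the pulse), and me31B in neuroblasts over neurons (-0.49, chase only). Not3 in neuroblasts over neurons was called at 4.95 by DESeq2. With libraries left out, the neuroblast slopes ranged between -0.73 and 0.085 for Pop2, -0.15 and 0.098 for Rga, -0.40 and 0.050 for Dcp1, and -0.59 and 0.041 for pcm. The neuron slopes ranged between -1.25 and 0.047 for Pop2, -0.22 and 0.18 for Not1, -0.24 and 0.67 for Not3, -0.043 and 0.25 for Dcp2, -0.64 and 0.045 for me31B, -0.14 and 1.61 for pcm, and -0.08 and 0.16 for pum, and without a change of sign between -0.62 and -0.07 for twin and -1.27 and -0.34 for Dcp1. The difference of slopes of me31B ranged between -0.40 and 0.16, and twin in neuroblasts over neurons between -6.41 and 2.86, at -2.93 without neuron pulse replicate 2.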
